A study of Homo sapiens with 24 samples.

Results

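The genes described here are 40 genes of G2 phase and mitosis, taken by symbol from a given list, with no threshold on their values. All 40 were among the 26645 gene rows of the count table and all 40 were among the 14741 rows that had enough counts to be tested. RNA was measured in MDA-MB-468 (MB468), a triple-negative breast cancer line that needs methionine (Met), and in MDA-MB-468res-R8 (MB468res-R8), a single revertant clone of it that proliferates with homocysteine (Hcy), the metabolic precursor of Met. The lines were compared to follow division-related transcripts when Met was replaced. Each of the 8 groups held 3 libraries. Cells of both lines were sampled at 0 h in Met+ medium with 100 µM Met, and after 0.5, 2 and 12 h of Met-Hcy+ medium, which holds no Met and 370 µM Hcy. All groups shared dialyzed serum and added vitamin B12. No library came from cells given fresh Met+ medium or kept in it for 12 h, so the medium change, time in culture and the swap of Met for Hcy cannot be told apart, and the clone cannot be told apart from independence of Met in general.

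Entry into mitosis is driven by cyclin-dependent kinase 1 (CDK1) bound to A-type and B-type cyclins, and exit from it by the anaphase-promoting complex (APC/C), which has securin and B-type cyclins destroyed. The genes for this machinery are transcribed late in the cycle, under the MuvB complex with B-MYB or FOXM1, acting with NF-Y at CCAAT boxes, and in resting cells the DREAM complex holds them down through a promoter element named the cell cycle genes homology region. A culture that has more cells in G2 and mitosis therefore holds more of these transcripts. In RNA from whole cultures, fewer cells in G2 or mitosis and less of these transcripts in each such cell cannot be told apart, and division itself was not measured in these libraries.

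The promoters of 6 members are shown because these genes carry the contrasts below: CCNB1, CCNB2 and HMMR moved in opposite directions in the lines, PLK1 and MKI67 rose in both, and CDC25B ran against the rest. Each sequence is the 120 bases before the RefSeq transcription start in GRCh38.p14, read 5′ to 3′ on the gene's strand. Capitals mark the NF-Y box (CCAAT or its reverse complement ATTGG) and the homology region (TTTGAA or TTTAAA or the reverse complement TTCAAA), and a run of capitals longer than a motif holds overlapping or adjoining matches. CCNB1 lies at chr5:69167030-69167149 on the plus strand, CCNB2 at chr15:59105026-59105145 (plus), HMMR at chr5:163460512-163460631 (plus), PLK1 at chr16:23678769-23678888 (plus), MKI67 at chr10:128126424-128126543 (minus) and CDC25B at chr20:3786831-3786950 (plus), the first of 4 RefSeq promoters of that gene.
CCNB1: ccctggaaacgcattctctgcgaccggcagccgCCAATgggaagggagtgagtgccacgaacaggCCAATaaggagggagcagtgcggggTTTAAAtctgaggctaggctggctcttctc
CCNB2: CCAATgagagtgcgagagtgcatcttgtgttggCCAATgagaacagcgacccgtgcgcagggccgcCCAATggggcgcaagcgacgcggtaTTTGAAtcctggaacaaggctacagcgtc
HMMR: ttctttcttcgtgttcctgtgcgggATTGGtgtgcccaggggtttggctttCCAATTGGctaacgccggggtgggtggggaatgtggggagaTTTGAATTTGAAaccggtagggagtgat
PLK1: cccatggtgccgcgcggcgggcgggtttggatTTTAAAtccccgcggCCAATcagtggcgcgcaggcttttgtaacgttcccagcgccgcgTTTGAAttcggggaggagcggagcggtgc
MKI67: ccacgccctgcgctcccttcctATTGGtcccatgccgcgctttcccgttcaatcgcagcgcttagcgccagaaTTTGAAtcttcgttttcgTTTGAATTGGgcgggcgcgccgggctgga
CDC25B: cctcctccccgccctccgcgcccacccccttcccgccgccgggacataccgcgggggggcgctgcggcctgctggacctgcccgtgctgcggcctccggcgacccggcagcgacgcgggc
CCNB1 and CCNB2 share a layout of CCAAT boxes followed by 1 homology region close to the start. The CDC25B window held neither motif, but NF-Y boxes were found 169 and 73 bases before a start in the RefSeq promoters of the gene, outside the window shown. PLK1 and MKI67, which behaved unlike the cyclins at 12 h, held both motifs too. RefSeq promoters were at hand for 33 members (43 promoters) and not for FOXM1, AURKA, BIRC5, BUB3, TTK, TPX2 and UBE2C.

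Within 250 bases before the start, 62.8% of the 43 promoters held the homology region on either strand, against 21.9% of all 35116 RefSeq promoters, and 74.4% held an NF-Y box, against 32% of all. At least 2 NF-Y boxes were found in 41.9% of member promoters and in 9.53% of all. E2F letters (TTTCCCGC, TTTGGCGC or TTTCGCGC on either strand) were found in 4.65% of member promoters and 2.32% of all, whereas among 52 promoters of S phase genes they were in 30.8% and the homology region was in 15.4%. These matches are descriptions of letters and not of binding. The homology region within 100 bases did not sort the members by their 12 h values: the gap between the responses of the lines at 12 h had a median of 0.47 (log2) over the 20 members with it and of 0.52 over the 13 with a promoter but without it.

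The libraries held between 11745553 and 36496655 counts, of which spike-in RNA took 0.201 to 0.303%. Values below are normalized counts, scaled by the TMM factor of each library, unless another scale is named. Epithelial markers were high in every library (EPCAM, KRT8, KRT18, KRT19, CDH1 and EGFR, summed to 144827 to 214230) and PGR, COL1A2, COL3A1, DCN, LUM, PTPRC, CD3E and LYZ were under 10 counts in every library. The other receptor genes listed with PGR were not near 0: ESR1 had 94.52 to 513.3 and ERBB2 (HER2) 872.3 to 2214. KDR, a vascular receptor, made up most of the endothelial list, whose sum at 12 h was 3285 to 4070 in MB468 and 232 to 276 in MB468res-R8. The leukocyte list, mostly CD14, summed to 1424 to 1712 and to 698 to 738, and the fibroblast list, mostly COL1A1, to 335 to 358 and to 666 to 874. The part of these genes in the member results was not tested, and the defining leukocyte gene PTPRC was near 0 throughout. MB468 at 2 h, replicate 2, stood apart with an RN7SK level (a small nuclear RNA) of 687 CPM, scaled to its gene counts, against 2.49 to 9.81 in the other 23 libraries, so the MB468 counts at 2 h are given with and without it.

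In Met+ medium the lines differed in about as many members as in genes at large. At 0 h 14 of 40 members were higher in MB468res-R8 and 9 lower, where 26.4% of all tested genes were called higher and 27.1% lower (edgeR's quasi-likelihood test, Benjamini-Hochberg adjusted p under 0.05), and the median log2 difference was 0.04. With library sizes set by the spike-ins, which moved the median of all genes to -0.31, 1 member was called higher and 18 lower, where 7.76% of all genes were called higher and 44.1% lower, and the members' median lay 0.04 above that of all genes under both scalings. ANLN, the contractile ring scaffold anillin, differed most upward, with 5939, 5950 and 5999 counts in MB468 and 10500, 10130 and 10430 in MB468res-R8 (log2 difference 0.80, adjusted p = 1.58e-21). UBE2C, the ubiquitin-conjugating enzyme of the APC/C, differed most downward, with 3893, 3512 and 3796 in MB468 and 2250, 2319 and 2215 in MB468res-R8 (-0.72, adjusted p = 2.19e-18). Neither pair of groups overlapped, and both genes kept their direction with spike-in scaling. ANLN and UBE2C were singled out here after their values were seen.

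Per kilobase of transcript, a scale on which genes can be compared with each other, securin (PTTG1) was the highest member at 0 h with 4912 in MB468 and 5688 in MB468res-R8. It was followed by UBE2C with 4806 and 2910, CDC20 with 2649 and 2836 and PLK1 with 2112 and 2623. The lowest were the kinetochore motor CENPE (158.5 and 150.5) and the phosphatase CDC25C (161.4 and 122.4). PTTG1 has near copies PTTG2 and PTTG3P, UBE2C has 5 listed pseudogenes and KIF4A has the copy KIF4B, so reads of these genes may have been split or lost in counting. The kit did not mark strand, and 57.6% of the exon bases of PRC1 overlap another gene on the same strand. On the opposite strand the largest overlaps were PRC1-AS1 with 34.3% of PRC1, ITFG2 with 15.9% of FOXM1 and a gene without a symbol with 11.6% of PLK1.

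At 12 h in Met-Hcy+ medium the lines were far apart. The members took 0.674% ± 0.0041 of gene counts for MB468 and 0.847% ± 0.0129 for MB468res-R8 (SD, n = 3), against 0.536% ± 0.00884 and 0.555% ± 0.012 at 0 h. In MB468res-R8 36 of 40 members rose from 0 to 12 h and 1 fell, where 30.2% of all genes were called higher and 31.1% lower, with a member median of 0.59 (log2) against -0.02 over all genes. In MB468 21 rose and 13 fell, where 36.1% and 34.7% of all genes did, with a median of 0.12. With spike-in scaling the MB468 split was 7 higher and 15 lower (median -0.11), where 17.2% of all genes were higher and 40.2% lower (median -0.23). Of the members called in MB468 with TMM scaling, 6 then changed sign (BIRC5, BUB1B, BUB3, KIF20A, CDC20 and ESPL1) and 8 more were not called (CDC25B, FOXM1, PLK1, INCENP, NDC80, KIF4A, TPX2 and TOP2A). MB468res-R8 had 35 higher and none lower with that scaling, where 18.8% and 21.2% of all genes were. Both lines at 12 h are set against their own 0 h libraries.

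**Figure D1:**
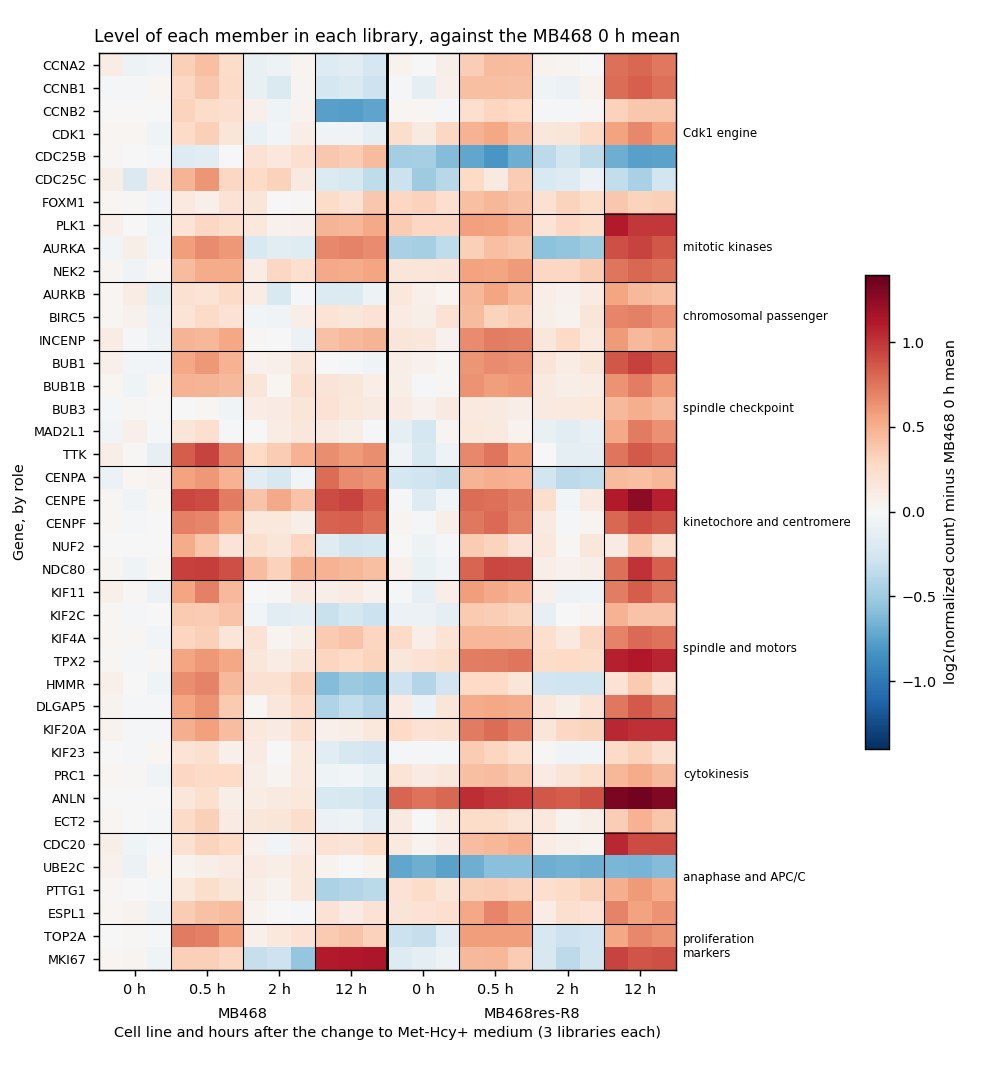
Heat map of the 40 members, ordered by role, in every library of each line at 0, 0.5, 2 and 12 h (3 libraries each). Colour gives the log2 normalized count minus the mean of the MB468 0 h libraries. Columns of MB468res-R8 thus also hold the difference between the lines at 0 h. Against 0 h of the same line, both lines are raised at 0.5 h under TMM scaling. At 2 h MB468 has 16 members called higher and 2 lower, where 8.88% and 7.47% of all genes were (median 0.10). MB468res-R8 at 2 h has 1 called higher and none lower, where 2.52% and 1.85% were (median 0.03). By calls against 0 h of the same line, at 12 h MB468res-R8 is raised in 36 of 40 members while MB468 holds 21 raised and 13 lowered.

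The gap between the responses of both lines at 12 h, an interaction term of the same fit that asks whether the change from 0 h differs between lines, was called for 33 members. It was higher in MB468res-R8 for 31 and lower for 2, where 26.2% and 30.3% of all genes were, with a median of 0.47 against -0.05. With spike-in scaling 32 were higher and none lower, where 27.5% and 11.8% of all genes were (median 0.73, all genes 0.20). The members fell into 3 large sets. Of 19 that rose in both lines, 14 had a called difference, all of them higher in MB468res-R8. All 12 that fell in MB468 and rose in MB468res-R8 had a called difference, as did all 5 that were not called in MB468 and rose in MB468res-R8 (CDK1, BUB1, MAD2L1, KIF11 and PRC1). For the 12 this largely follows from how they were picked, by opposite calls from the same fit. Among those 12, the fall of AURKB and of ECT2 in MB468 was no longer called when any of several single libraries was left out. That of AURKB (-0.16) was not called without replicate 1 or 2 at 0 h or replicate 1 or 2 at 12 h (adjusted p 0.062 to 0.174) or with GC and length offsets (0.264). That of ECT2 (-0.10) was not called without replicate 1 or 2 at 0 h or replicate 3 at 12 h (0.0776 to 0.149). The last 4 members, CDC25B, CDC25C, FOXM1 and UBE2C, did not rise in MB468res-R8.

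Among the 7 genes of the Cdk1 engine, the cyclins carried the widest gap. CCNB1, the main mitotic cyclin, had 3983, 3978 and 4084 counts in MB468 at 0 h and 3394, 3485 and 3296 at 12 h, and in MB468res-R8 it had 3934, 3657 and 4208 at 0 h and 6894, 7187 and 6844 at 12 h. All 3 libraries of MB468 at 12 h lay under, and all 3 of MB468res-R8 at 12 h over, every 0 h library of either line. The log2 change was -0.24 (SE 0.048, adjusted p = 2.25e-05) in MB468 and 0.83 (SE 0.048, adjusted p = 2.85e-18) in MB468res-R8, by edgeR's quasi-likelihood test, and the difference between them was 1.07 (SE 0.068). CCNB2, a second B-type cyclin, had 2184, 2203 and 2199 in MB468 at 0 h and 1298, 1286 and 1320 at 12 h, and in MB468res-R8 2232, 2231 and 2160 at 0 h and 2740, 2855 and 2858 at 12 h. The lines overlapped at 0 h, and at 12 h every MB468res-R8 library lay far above every MB468 library. Its change was -0.75 (SE 0.042, adjusted p = 3.02e-19) in MB468 and 0.35 (SE 0.041) in MB468res-R8, and the difference was 1.10 (adjusted p = 3.31e-19). CCNA2, the cyclin of S phase and G2, fell by 0.19 in MB468 and rose by 0.73 in MB468res-R8.

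CDK1, the kinase these cyclins activate, was not called in MB468, with 3561, 3560 and 3339 counts at 0 h and 3359, 3357 and 3202 at 12 h, groups that overlapped. In MB468res-R8 it rose from 4125, 3810 and 4259 to 5167, 5569 and 5198 (log2 0.39, SE 0.048, adjusted p = 5.41e-09). FOXM1, the transcription factor of many of these promoters, was the reverse: it rose in MB468 from 3870, 3831 and 3683 to 4532, 4375 and 4936 (0.28, adjusted p = 7.15e-07) and had 4621, 4731 and 4468 and then 4924, 4693 and 4770 in MB468res-R8, groups that overlapped. Its difference between the lines was -0.22 (adjusted p = 0.0029), but 0.04 and not called with spike-in scaling, and not called without replicate 3 of MB468 at 0 h (-0.16, adjusted p = 0.0548) or with GC and length offsets (-0.02, adjusted p = 0.744).

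CDC25B, a phosphatase that activates CDK1, ran against the other members. It rose in MB468 from 4298, 4257 and 4219 to 5549, 5430 and 5769 (0.39, adjusted p = 4.31e-10) and fell in MB468res-R8 from 3067, 3078 and 2797 to 2657, 2519 and 2525 (-0.22, adjusted p = 0.000127), with no overlap in either line. The difference of -0.61 was not called with spike-in scaling (-0.35, adjusted p = 0.117), and the MB468res-R8 value was 0.04 with offsets corrected for GC content and length. CDC25C, its relative, was a low member with 356.2, 293.2 and 364 counts in MB468 at 0 h and 294.4, 286.9 and 263.6 at 12 h. It was called lower (-0.25, adjusted p = 0.015) although the groups overlapped, and not called without replicate 1 at 0 h (adjusted p = 0.08) or replicate 3 at 12 h (0.0715), and in MB468res-R8, with 272.8, 238.3 and 257.6 and then 265.5, 244.8 and 280.4, it was not called.

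All 3 mitotic kinases rose in both lines, where 36.1% of all genes rose in MB468 and 30.2% in MB468res-R8. AURKA, the kinase of centrosomes and spindle poles, had the largest rise of any member in MB468res-R8, from 1153, 1142 and 1230 to 2942, 3034 and 2874 (1.33, SE 0.046, adjusted p = 1.8e-25), and rose in MB468 from 1531, 1665 and 1536 to 2509, 2560 and 2490 (0.67, SE 0.044). MB468res-R8 thus started below MB468 and ended above it, with no overlap at either time, and the difference was 0.66 (adjusted p = 1.08e-11). At 12 h alone the gap between the lines was 0.23 and was not called with spike-in scaling (0.18, adjusted p = 0.236). PLK1, the kinase of mitotic entry and exit, had 4778, 4538 and 4372 counts in MB468 at 0 h and 6348, 6315 and 6597 at 12 h, and in MB468res-R8 5832, 5590 and 5573 and then 9837, 9051 and 9066. It rose by 0.49 and 0.72, and the difference of 0.23 was called (adjusted p = 0.000989), which places it among the smallest called gaps. With spike-in scaling its MB468 value was 0.25 and not called (adjusted p = 0.0769). NEK2, a centrosome kinase, rose by 0.54 and 0.60, with no called difference (0.07, adjusted p = 0.375).

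The chromosomal passenger complex, which corrects attachments of chromosomes to the spindle, was split among its subunits. AURKB, its kinase, fell by 0.16 in MB468 with overlapping groups and rose by 0.39 in MB468res-R8, survivin (BIRC5) rose by 0.18 and 0.55 (but -0.06 and not called in MB468 with spike-in scaling), and the scaffold INCENP rose by 0.44 and 0.38. The difference was called for AURKB (0.55) and BIRC5 (0.37) and not for INCENP (-0.06, adjusted p = 0.458).

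All 5 spindle checkpoint genes, which hold anaphase until chromosomes are attached, had a called difference higher in MB468res-R8. For that 12 h difference 26.2% of all genes were called higher and 30.3% lower. BUB1, a checkpoint kinase at kinetochores, had 2801, 2594 and 2594 counts in MB468 at 0 h and 2659, 2638 and 2568 at 12 h, which overlap, and in MB468res-R8 2827, 2782 and 2700 and then 4880, 5150 and 4861. The MB468 value of -0.02 (adjusted p = 0.627) stood against a rise of 0.84 (adjusted p = 3.25e-20), and the difference of 0.86 was the largest of the 5. TTK, the kinase that starts checkpoint signalling, rose in both lines, from 1673, 1594 and 1456 to 2477, 2370 and 2461 in MB468 (0.63) and from 1505, 1354 and 1491 to 2634, 2842 and 2729 in MB468res-R8 (0.91), with a difference of 0.29 (adjusted p = 0.00371). BUB1B, BUB3 and MAD2L1, which belong to the inhibitor of the APC/C, had differences of 0.47, 0.21 and 0.69.

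The kinetochore genes held the members that rose most alike. CENPF, a large kinetochore protein of G2 and mitosis, had 6002, 5902 and 5951 counts in MB468 at 0 h and 10550, 10620 and 10160 at 12 h, and 6100, 5905 and 6294 and then 10400, 11220 and 10880 in MB468res-R8. The lines overlapped at both times, and the changes of 0.81 and 0.83 (SE 0.042 in each) differed by 0.02 (SE 0.059, adjusted p = 0.818). CENPE, the kinetochore motor that gathers chromosomes at the middle of the spindle, rose from 1373, 1312 and 1377 to 2558, 2602 and 2414 in MB468 (0.90) and from 1339, 1194 and 1323 to 2932, 3216 and 2882 in MB468res-R8 (1.23), a difference of 0.33 (adjusted p = 0.00131). NDC80, the microtubule-binding subunit of the outer kinetochore, rose from 1475, 1375 and 1450 to 2004, 1976 and 1914 (0.46) and from 1491, 1347 and 1390 to 2453, 2892 and 2554 (0.90), with no overlap at 12 h. Its partner NUF2 fell by 0.22 in MB468 and rose by 0.27 in MB468res-R8, so subunits of 1 complex did not move together in MB468. The centromeric histone CENPA rose by 0.69 and 0.72.

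The 6 spindle genes all rose in MB468res-R8 and all had a called difference. Of all genes, 30.2% rose in MB468res-R8, and the difference was called higher for 26.2% and lower for 30.3%. HMMR, which organises spindle poles, had the largest difference of the 40, with 1645, 1559 and 1501 counts in MB468 at 0 h and 1031, 1097 and 1065 at 12 h, and 1280, 1177 and 1304 and then 1803, 2018 and 1801 in MB468res-R8. MB468 began above MB468res-R8 and ended below it without overlap, and the difference was 1.14 (SE 0.08, adjusted p = 1.56e-15). DLGAP5, a microtubule-binding protein of the spindle, had 1808, 1727 and 1717 and then 1305, 1376 and 1314 in MB468, and 1890, 1648 and 1969 and then 2911, 3166 and 2998 in MB468res-R8, a difference of 1.12 (adjusted p = 4.67e-14). It followed the course of HMMR, except that the lines overlapped at 0 h. TPX2, the activator of Aurora A at the spindle, rose in both lines, from 4196, 4054 and 4178 to 5121, 5028 and 5150 (0.30) and from 4615, 4760 and 4920 to 8837, 9034 and 8682 (0.89). The motor KIF11 and the depolymerase KIF2C had differences of 0.70 and 0.81, and the chromosome motor KIF4A one of 0.21.

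Cytokinesis genes also had a called difference in 5 of 5, where 26.2% of all genes were called higher and 30.3% lower. KIF20A, a motor of the midzone, had 3680, 3484 and 3505 counts in MB468 at 0 h and 3721, 3782 and 3951 at 12 h, a rise of 0.10 (adjusted p = 0.0311) that was -0.14 and not called with spike-in scaling, and not called without replicate 2 or 3 of MB468 at 0 h or at 12 h (adjusted p 0.0541 to 0.216). In MB468res-R8 it rose from 4311, 4090 and 4129 to 7385, 7198 and 7239 (0.80, adjusted p = 1.81e-19), well clear of every MB468 library. ANLN fell in MB468 to 5132, 5107 and 4927 (-0.24) and rose in MB468res-R8 to 14890, 15200 and 14640 (0.53), from the 0 h counts given above, so that at 12 h the log2 gap between the lines was 1.56 (adjusted p = 1.2e-31), the widest of the 40. The other 3, KIF23, PRC1 and ECT2, which build the central spindle and position the furrow, had differences of 0.50, 0.39 and 0.44.

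Of the 4 genes of anaphase and the APC/C, 3 had a called difference, where 26.2% of all genes were called higher and 30.3% lower. CDC20, the activator of the APC/C in mitosis, had 4634, 4182 and 4290 counts in MB468 at 0 h and 5022, 4953 and 5235 at 12 h (0.21, but -0.03 with spike-in scaling), and 4797, 4515 and 4718 and then 9070, 8219 and 8214 in MB468res-R8 (0.86). PTTG1, securin, the inhibitor of separase, fell in MB468 from 3556, 3508 and 3472 to 2576, 2651 and 2697 (-0.41, adjusted p = 6.06e-12) and rose in MB468res-R8 from 4033, 4208 and 3958 to 5010, 5308 and 5022 (0.33). Separase itself, ESPL1, rose in both lines (0.17 and 0.42), but in MB468 it was -0.07 and not called with spike-in scaling, and not called without replicate 3 at 0 h (0.11, adjusted p = 0.0665). UBE2C stayed uncalled in both, at 3851, 3757 and 3872 in MB468 and 2391, 2375 and 2450 in MB468res-R8 at 12 h, and its difference was 0.05 (SE 0.058, adjusted p = 0.465).

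The 2 genes used most as marks of proliferating cells gave different pictures. MKI67, which encodes the Ki-67 antigen, rose in MB468 from 8318, 8417 and 7849 to 17670, 17770 and 17890 (1.12, SE 0.046, adjusted p = 8.28e-23) and in MB468res-R8 from 7206, 7429 and 7792 to 15770, 15030 and 15340 (1.04, SE 0.047, adjusted p = 3.09e-21). It was the largest rise of any member in MB468, the 12 h groups lay above all 0 h libraries in both lines, and at 12 h MB468 was the higher line without overlap. The difference in response was -0.07 (SE 0.065, adjusted p = 0.343), so by MKI67 mRNA alone the lines were not told apart in their response. TOP2A, the topoisomerase that disentangles chromosomes, rose from 7462, 7555 and 7345 to 9596, 9847 and 9293 in MB468 (0.36) and from 6052, 5944 and 6661 to 10860, 11860 and 11530 in MB468res-R8 (0.88), a difference of 0.52 (adjusted p = 2.17e-09). Without these genes, left out after their values were seen, the share of counts was 0.547% ± 0.00321 in MB468 and 0.731% ± 0.0127 in MB468res-R8 at 12 h, from 0.467% ± 0.00811 and 0.495% ± 0.00985 (SD, n = 3).

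**Figure D2:**
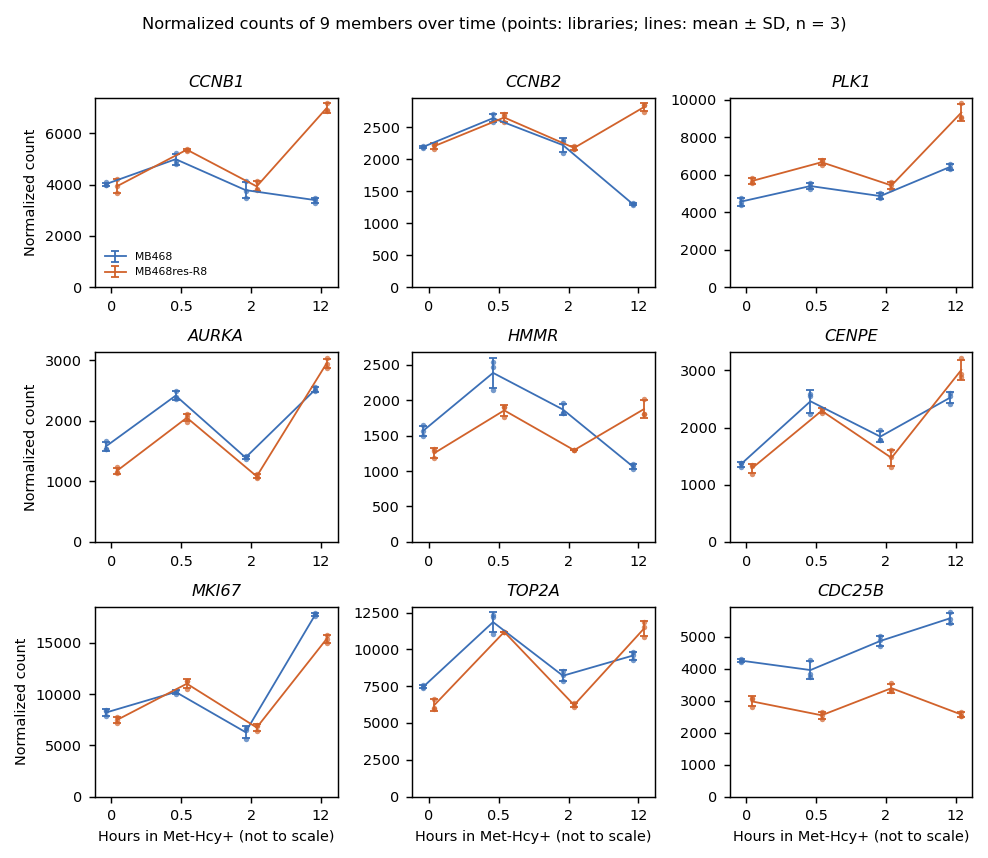
Normalized counts of 9 members against hours in Met-Hcy+ medium (0, 0.5, 2 and 12 h, evenly spaced and not to scale), MB468 in blue and MB468res-R8 in orange, with points for libraries and lines and bars for the mean ± SD (n = 3). The lines run together to 2 h for CCNB1 and CCNB2 and part at 12 h, while for MKI67 both lines rise at 12 h, MB468 to 17670 to 17890 and MB468res-R8 to 15030 to 15770.

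Across the members, the 12 h change in MB468 correlated with log2 transcript length at r = 0.44 (all genes 0.10), and the difference between the lines with GC content at r = -0.45 (all genes -0.14). These are descriptions over 40 genes measured in the same libraries. Correcting the library offsets for GC content and length gave a member median of 0.04 in MB468 at 12 h.

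Compared directly at 12 h, MB468res-R8 was higher than MB468 in 32 members and lower in 4, where 33.9% of all genes were higher and 39.2% lower, with a member median of 0.50 against -0.06. With spike-in scaling these counts were 26 and 3, where 24.1% and 34.6% of all genes were. The 4 that were lower in MB468res-R8, CDC25B, CENPA, UBE2C and MKI67, were called lower at 0 h too, with MKI67 at -0.13 on the log2 scale, a call lost without replicate 1 or 2 of MB468 or replicate 1 of MB468res-R8 (adjusted p 0.0566 to 0.0763). At 12 h MKI67 was not called with spike-in scaling (-0.26, adjusted p = 0.0625) or with GC and length offsets (-0.06, adjusted p = 0.149). AURKA, KIF2C, HMMR and TOP2A were called lower in MB468res-R8 at 0 h and higher at 12 h. Of these, KIF2C at 0 h (-0.10) was not called without replicate 1 or 2 of MB468 or replicate 2 or 3 of MB468res-R8 (adjusted p 0.0579 to 0.139), and AURKA and TOP2A (0.20, adjusted p = 0.157) at 12 h were not called with spike-in scaling. Of the 32 higher at 12 h, 12 were already higher at 0 h and 16 were not called there. With spike-in scaling only 1 member, ANLN (0.49), was called higher at 0 h, where 7.76% of all genes were. FOXM1 and INCENP were called higher at 0 h and not at 12 h, and both were below 0 at 0 h with spike-in scaling. INCENP at 0 h was also not called without replicate 2 or 3 of MB468 or replicate 1 or 2 of MB468res-R8 (adjusted p 0.0701 to 0.181).

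The members did not wait 12 h to move. At 0.5 h 36 of 40 rose and none fell in MB468, where 17.6% of all genes were called higher and 16.4% lower, with a median of 0.36. In MB468res-R8 38 rose and 1 fell, where 17.4% and 16.3% did, with a median of 0.40. With spike-in scaling 9 were higher and 1 lower in MB468, where 3.11% and 19.2% of all genes were (median 0.14, all genes -0.20), with FOXM1, KIF23, ANLN and PTTG1 changing sign, and 26 were higher and none lower in MB468res-R8, where 8.1% and 5.62% of all genes were. The share of gene counts was 0.699% ± 0.0208 in MB468 and 0.744% ± 0.00749 in MB468res-R8. NDC80 rose in MB468 to 2773, 2793 and 2676 (0.94, adjusted p = 4.91e-18) and in MB468res-R8 to 2521, 2731 and 2712 (0.91), above all 0 h libraries. TOP2A rose to 12320, 12190 and 11060 (0.67) and to 11180, 11190 and 11200 (0.85). In MB468 both lay higher at 0.5 h than at 12 h, without overlap. CCNB1, lowered in MB468 at 12 h, rose at 0.5 h to 4919, 5224 and 4817 (0.31) in MB468 and to 5392, 5360 and 5318 (0.45) in MB468res-R8.

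TPX2 rose at 0.5 h to 6091, 6315 and 6042 in MB468 (0.57) and AURKA to 1989, 2110 and 2058 in MB468res-R8 (0.81). CDC25B was the member that fell in MB468res-R8, to 2566, 2424 and 2644 (-0.23, adjusted p = 0.000146), and had 3757, 3851 and 4273 in MB468 (-0.11, adjusted p = 0.0609). BUB3, which recruits checkpoint proteins, gave -0.00 and 0.02 and was called in neither line. At 0.5 h the difference between the responses was called for 1 member, MKI67 (0.24, adjusted p = 0.0299), where 2.90% of all genes were called in either direction, and 6 members had an unadjusted p under 0.05. MKI67 had 10310, 10320 and 9990 in MB468 and 11230, 11310 and 10500 in MB468res-R8 at 0.5 h. The call ended with spike-in scaling (adjusted p = 0.234) and without any 1 of 7 libraries (0.0623 to 0.0952), namely replicates 1 and 2 at 0 h of each line, replicate 3 of MB468 at 0.5 h and replicates 1 and 2 of MB468res-R8 at 0.5 h.

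By 2 h most of this rise had gone. Against 0.5 h, in a comparison added after the data were seen, 29 members were lower and 2 higher in MB468, where 16.5% and 16.3% of all genes were, with a median of -0.31. In MB468res-R8 36 were lower and 1 higher, where 17.9% and 17.4% were, with a median of -0.38. AURKA went down most in both, by 0.80 and 0.92 on the log2 scale, to 1363, 1417 and 1401 in MB468 and 1060, 1071 and 1119 in MB468res-R8. CDC25B was called higher in both (0.31 and 0.42), but in neither with spike-in scaling (0.10, adjusted p = 0.572, and 0.32, adjusted p = 0.069). Without replicate 2 of MB468 at 2 h the MB468 counts were also 29 lower and 2 higher, with a median of -0.29. The comparisons of 0.5 h with 0 h and of 2 h with 0.5 h share the 0.5 h libraries, so their values are not independent.

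Against 0 h, 16 members were higher at 2 h and 2 lower in MB468, where 8.88% and 7.47% of all genes were. The median was 0.10. Without replicate 2 of MB468 at 2 h these counts were 14 and 2 (median 0.12), and without replicate 3 they were 9 and 3. With spike-in scaling none was higher and 29 were lower, where 1.63% and 62.9% of all genes were (median -0.33, all genes -0.42), and the members' median lay 0.09 above that of all genes under both scalings. NDC80 had 1937, 1793 and 2032 counts at 2 h (0.43, adjusted p = 1.02e-07), TTK 1911, 2015 and 2199 (0.37) and CENPE 1783, 1957 and 1787 (0.44). These were above all 0 h libraries of MB468. With spike-in scaling NDC80 and TTK lay slightly below 0 and CENPE at 0.02, and none of them was called. MKI67 was lower, with 6531, 6711 and 5612 (-0.39, adjusted p = 4.93e-08), as was AURKA (-0.18, adjusted p = 0.00507, but 0.0745 without replicate 2 of MB468 at 0 h).

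In MB468res-R8 at 2 h 1 member was called higher and none lower, where 2.52% and 1.85% of all genes were, and 7 members had an unadjusted p under 0.05 (DESeq2's Wald test called 2). The called member was CDC25B, with 3292, 3556 and 3333 (0.19, adjusted p = 0.00987), and it was not called without replicate 3 of MB468res-R8 at 0 h (adjusted p = 0.152) or replicate 2 at 2 h (0.167). The difference between the lines at 2 h was called for 3 members, where 5.07% of all genes were called. It was -0.33 for NDC80 (adjusted p = 0.00493) and -0.34 for TTK (adjusted p = 0.013), and 0.23 for MKI67 (adjusted p = 0.0276). TTK was not called without replicate 3 of MB468 at 0 h or at 2 h or replicate 1 of MB468res-R8 at 0 h (adjusted p 0.0513 to 0.0624). MKI67 was not called without any 1 of 7 libraries (0.0585 to 0.154), namely replicates 1 and 2 at 0 h of each line, replicate 3 of MB468 at 2 h and replicates 1 and 3 of MB468res-R8 at 2 h. Without replicate 2 of MB468 at 2 h there were also 3 members called, without replicate 3 there was 1, and with spike-in scaling NDC80 and TTK changed sign to 0.06 and 0.04. The responses at 0.5, 2 and 12 h share their 0 h libraries.

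**Figure D3:**
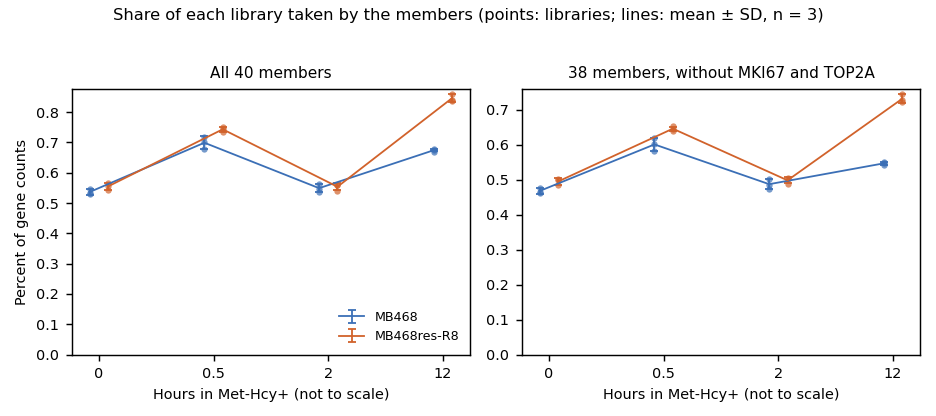
Share of gene counts held by the 40 members, in percent, against hours in Met-Hcy+ medium (0, 0.5, 2 and 12 h, not to scale), with points for libraries and lines and bars for the mean ± SD (n = 3), for all members (left) and without MKI67 and TOP2A (right). For all members the share rises in both lines at 0.5 h, is back near 0.55% at 2 h, and at 12 h is 0.67 to 0.677% in MB468 and 0.837 to 0.861% in MB468res-R8.

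Genes outside the 40 were listed for context, beside the shares of all genes called at 12 h. These were 36.1% higher and 34.7% lower in MB468, 30.2% and 31.1% in MB468res-R8, and 26.2% and 30.3% for the difference. Of 70 other G2 and mitosis genes, 69 were tested: 37 rose and 19 fell in MB468 at 12 h (median 0.24), and 53 rose and 4 fell in MB468res-R8 (median 0.46), with a difference higher for 38 and lower for 15. The wider set thus held a larger share of genes with a difference lower in MB468res-R8 than the 40 members did, a contrast that was not tested. SGO2, which guards centromeric cohesion, rose most in MB468 (1.58) with CKAP2, a spindle protein (1.49), and HJURP, the chaperone that loads CENPA (1.50), rose most in MB468res-R8 with cyclin F, CCNF (1.44). SGO2, HJURP and CCNF had no called difference between lines (-0.14, 0.07 and 0.08). KNSTRN, a kinetochore and spindle protein, followed the cyclins: it fell from 1310, 1336 and 1251 to 883.9, 914.7 and 956.8 in MB468 and rose from 1300, 1104 and 1195 to 2154, 2264 and 2142 in MB468res-R8, a difference of 1.36 (adjusted p = 4.02e-17). CENPH, an inner kinetochore subunit, fell in MB468 from 300.6, 309.2 and 341.5 to 114.2, 142.4 and 130.5 (-1.30) and was not called in MB468res-R8, a difference of 1.23. CENPL, of the same inner kinetochore network, had a difference of -0.93.

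Of 46 S phase genes, 12 rose and 24 fell in MB468 and 19 rose and 9 fell in MB468res-R8, with a difference higher for 31 and lower for 9 (median 0.29). EXO1, an exonuclease of DNA repair, had the lowest difference (-1.21): it rose by 1.17 in MB468 and was not called in MB468res-R8. The APC/C core subunits (15) had 8 higher and 4 lower in MB468 and 9 higher and 3 lower in MB468res-R8. The cohesin genes (12) had 6 higher and 3 lower, and 9 higher and none lower. The 12 h shares of all genes given above stand beside these S phase, APC/C and cohesin counts. At 0.5 h 7 S phase genes rose and 18 fell in MB468, and 8 rose and 6 fell in MB468res-R8, beside the shares of all genes given for that time above, while 45 and 50 of the 69 other G2 and mitosis genes rose and 2 and 3 fell. The contrast between the lists was not tested.

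Among 22 regulators of late cell cycle promoters, 10 rose and 9 fell in MB468 and 10 rose and 6 fell in MB468res-R8 at 12 h, with a difference higher for 6 and lower for 8. Of all genes, 36.1% rose and 34.7% fell in MB468, and 30.2% and 31.1% did in MB468res-R8. The difference was higher for 26.2% of all genes and lower for 30.3%. CDKN1A, the CDK inhibitor p21, had 802.2, 832.7 and 909.2 counts in MB468 at 0 h, 614.9, 538.7 and 688.7 at 0.5 h, 1754, 1784 and 1683 at 2 h and 271.8, 318.2 and 316.8 at 12 h. In MB468res-R8 it had 2401, 2240 and 1681, then 1552, 1520 and 1352, then 2896, 3888 and 2814, and 378.2, 383.8 and 433.3 at 12 h. It was thus highest at 2 h, when the members had come down, and lowest at 12 h in both lines. It fell by 1.49 in MB468 and fell by 2.41 in MB468res-R8 from 0 to 12 h on the log2 scale, a difference of -0.92 (adjusted p = 0.00162). MYBL2, which encodes B-MYB, fell in MB468 from 9510, 9405 and 9122 to 7927, 7536 and 8033 (-0.25, adjusted p = 1.53e-06) and was not called in MB468res-R8 (0.02), a difference of 0.28. E2F1, the G1/S activator, was not called in MB468 (-0.09) and fell in MB468res-R8 from 1435, 1282 and 1376 to 947.7, 800.6 and 853.4 (-0.65). RBL1, the pocket protein p107 of DREAM, fell by 0.22 and 0.25, with no called difference.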

How the data were processed

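RNA was measured in 24 libraries, 3 for each of 8 groups of 2 cell lines, grouped by the labels. The authors made poly(A) libraries with spike-in RNA, mapped single-end reads by HISAT2 2.1.0 against GRCh38/hg38 plus the spike-ins, and made gene counts by featureCounts (Subread 1.5.3), per the paper's methods and the submitters' processing notes. The deposited count table holds raw counts for 26645 gene rows and 92 spike-ins, and no column of it was left unmapped (0 columns). A deposited table of filtered normalized counts and a table of the authors' own fold changes and p-values were not used.

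Counts were fitted in R 4.3.3 with edgeR 4.0.16 (quasi-likelihood test, TMM factors, 1 mean for each of the 8 groups, all 24 libraries in 1 fit). filterByExpr (minimum count 10) kept 14741 genes, and p-values were adjusted by Benjamini-Hochberg over all of them, with calls at 0.05. Spike-in rows stayed out of library sizes and tests. The difference between the lines in a response is the interaction contrast. Where nothing says that libraries came from separate cultures, p-values measure only the spread between these samples. Depth ran from 11745553 to 36496655 counts. Promoters came from RefSeq (GRCh38.p14) and gene spans and lengths from the annotation of GRCh38.

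The 40 members and the other lists were chosen with earlier results of these data known. Values in every library are given for CCNB1, CDK1, PLK1, AURKA, BUB1, CENPE, KIF20A, CDC20, TOP2A, MKI67 and FOXM1, for the 3 members with the largest log2 fold change in each direction in each 12 h comparison, and at 0.5 and 2 h for up to 3 called members in each direction by p. From the other lists, pooled, the 2 called genes with the largest change in each direction in each 12 h comparison are named, with CDKN1A, MYBL2, E2F1 and RBL1. Members named beyond these were added after their values were seen. Alternatives were DESeq2 1.42.0 (its test and its size factors), library sizes from the spike-ins or a spike-in covariate, other filters, only the groups compared, a replicate block, stricter thresholds, leaving out each library, and, added after seeing the data, offsets corrected for GC content and length and the comparison of 2 h with 0.5 h.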

Additional observations from a re-analysis of the deposited data

Results flagged for a closer look

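The results listed here were picked out because the response of the lines differed in a test of the difference itself, the interaction term of edgeR's quasi-likelihood fit. At 12 h 33 of the 40 members differed, where 26.2% of all genes were called higher and 30.3% lower, with HMMR (log2 difference 1.14), DLGAP5 (1.12) and CCNB2 (1.10) the highest and CDC25B (-0.61) and FOXM1 (-0.22) the 2 that were lower in MB468res-R8. At 0.5 h 1 member differed, MKI67 (0.24), where 2.90% of all genes did, and at 2 h 3 did, MKI67 (0.23), NDC80 (-0.33) and TTK (-0.34), where 5.07% of all genes did, so neither count stood far from the share of all genes. With spike-in scaling CDC25B (-0.35) and FOXM1 (0.04) were not called at 12 h, nor was MKI67 at 0.5 h. At 2 h NDC80 (0.06) and TTK (0.04) then changed sign. The MKI67 calls at 0.5 and 2 h were each lost without any 1 of 7 libraries. Member values were not tested for outlying libraries within groups of 3.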

How the results depend on the processing

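Calls on the members depended most on how libraries were scaled. With spike-in totals as library sizes, the members called were 10 in MB468 at 0.5 h, 29 at 2 h and 22 at 12 h, 0 in MB468res-R8 at 2 h and 0 for the difference between the lines at 0.5 h. The shares of all genes called with that scaling stand beside these counts in the results above, and were 0.78% higher and 0.441% lower in MB468res-R8 at 2 h and 0.543% higher and 0.142% lower for the 0.5 h difference. The member median (log2) was then -0.27 between the lines at 0 h and 0.45 at 12 h, 0.14, -0.33 and -0.11 in MB468 at 0.5, 2 and 12 h, 0.45 and -0.023 in MB468res-R8 at 0.5 and 2 h, 0.28, 0.31 and 0.73 for the differences at 0.5, 2 and 12 h, and -0.52 and -0.47 for 2 h against 0.5 h in MB468 and MB468res-R8. Over all 40 members, the called values whose sign turned with this scaling were 12 between the lines at 0 h, 4, 15 and 6 in MB468 at 0.5, 2 and 12 h, 1 in MB468 at 2 h against 0.5 h, 2 in the 2 h difference and 1 in the 12 h difference. Among the members given by library they were CDK1 (-0.087), FOXM1 (-0.031), TPX2 (-0.11), KIF20A (-0.078) and PTTG1 (-0.10) between the lines at 0 h, FOXM1 (-0.083), ANLN (-0.055) and PTTG1 (-0.029) in MB468 at 0.5 h, CDC25B (-0.23), TTK (-0.053), CENPF (-0.29), NDC80 (-0.0032), TPX2 (-0.28), HMMR (-0.17), KIF20A (-0.26), ANLN (-0.30), UBE2C (-0.31) and TOP2A (-0.28) in MB468 at 2 h, KIF20A (-0.14) and CDC20 (-0.025) in MB468 at 12 h, TTK (0.038) and NDC80 (0.058) in the 2 h difference, and FOXM1 (0.037) in the 12 h difference. The cause was not tested. In MB468res-R8 at 2 h the members called were 2 with a spike-in covariate, 3 with no low-count filter, 2 with DESeq2's Wald test, 2 with only the groups compared and 3 with GC and length offsets. The covariate gave 0 calls for the 0.5 h difference, 7 for the 2 h difference and a median of 0.43 for the 12 h difference. GC and length offsets gave medians of 0.31 and 0.039 in MB468 at 0.5 and 12 h, 3 and 6 calls for the differences at 0.5 and 2 h, and a sign change for CDC25B in MB468res-R8 at 12 h (0.037). At an adjusted p under 0.01, 11 members were called in MB468 at 2 h, 0 for the 0.5 h difference and 1 for the 2 h difference. Changes of at least 1.5-fold were fewer by construction: 2 and 17 between the lines at 0 and 12 h, 7, 0 and 7 in MB468 and 8, 0 and 20 in MB468res-R8 at 0.5, 2 and 12 h, 0, 0 and 16 for the differences, and 3 and 8 for 2 h against 0.5 h. Among the alternatives, the share of all genes called was counted only for spike-in scaling. Member counts under the others, also with single libraries left out, have no such share beside them.

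Leaving out each library in turn gave 0 to 2 calls for the difference at 0.5 h (median 0.00068 to 0.054), 1 to 4 for that at 2 h and 32 to 34 for that at 12 h (median 0.42 to 0.54). It gave 12 to 17 calls in MB468 at 2 h (12 without replicate 3 of that group), 0 to 2 in MB468res-R8 at 2 h, a median of 0.32 to 0.38 in MB468 at 0.5 h and of 0.090 to 0.14 at 12 h, and of 0.48 to 0.55 between the lines at 12 h. A replicate block gave 33 called members in MB468 at 12 h against 34 without it, and 38 in MB468res-R8 at 0.5 h against 39. The numbers do not pair the samples by the labels, and deviations of same-numbered libraries correlated at -0.501 to 0.508 (mean -0.0199), with 25 of 84 pairs over 0.1. Members with few counts, such as CDC25C, had the widest errors.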
